A study of Homo sapiens with 12 samples.

Results

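The interaction of gefitinib with co-culture was measured in HCC827, an epithelial line from a non-small cell lung cancer with an activating mutation of EGFR. It is a difference of differences: the log2 change with gefitinib in cells that shared their medium with MRC-5, a line of normal lung fibroblasts, minus the log2 change with gefitinib in cells grown alone. All 12 arrays of the study enter it (12 of 12), and their titles give the groups. There were 4 groups with 3 arrays in each: monoculture with DMSO, monoculture with gefitinib (gefitinib monoculture), co-culture with no drug, and gefitinib co-culture. In the treated groups gefitinib was given at 0.5 µM after 24 h of culture, and the cells were then washed with PBS. Co-culture lasted 48 h, in EMEM with fetal calf serum, through inserts with 1 µm pores, and the arrays hold RNA of the HCC827 cells. The vehicle DMSO is named for the monoculture control and not for the co-culture without drug. The sources used here give neither the medium of the monoculture groups in the last 48 h nor whether gefitinib was then present. Nothing in the labels says that the 3 arrays of a group came from separate cultures, so the p-values measure the spread between these samples, which may be technical.

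As background, EGFR is a receptor tyrosine kinase whose mutated form signals without ligand in this line, mainly through the RAS-ERK and PI3K-AKT pathways. Gefitinib occupies the ATP site of the kinase and in EGFR-mutant cells lowers ERK target genes, stops the cell cycle and favours cell death. Fibroblasts secrete growth factors, HGF among them, that can signal through receptors other than EGFR. A positive interaction marks a gene that was higher in gefitinib co-culture than the monoculture change and the co-culture difference added together would give, and a negative interaction marks the reverse.

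Values are log2 of the authors' normalized intensities, from which no background was subtracted, so changes of dim genes are understated. On each array 43.4 to 46.5% of probes were detected, and median scanner intensities were 99.1 to 102.6 on monoculture arrays and 106 to 110 on co-culture arrays. Within a group, r between arrays over 13577 genes was 0.993 to 0.996. The array labels and the row order of the scanner table set all 6 co-culture arrays apart from the 6 monoculture arrays. A shift common to the co-culture arrays cancels in the interaction, but culture and array set cannot be told apart as a source of a different size of response. The median residual standard deviation was 0.0912 on monoculture arrays and 0.104 on co-culture arrays. All 11 epithelial markers of HCC827 were detected on all 3 arrays of every group, apart from 1 marker in co-culture. Their summed intensity was 33154 to 33502 with DMSO, 32127 to 32683 with gefitinib in monoculture, 29842 to 31614 in co-culture and 26072 to 27232 in gefitinib co-culture. Of 14 fibroblast markers, between 0 and 3 were detected on all 3 arrays of a group, and POSTN, THY1, FAP, PDGFRA and PDGFRB were detected on no array. The summed fibroblast intensity was 1392 to 1566 in monoculture and 1345 to 1443 in co-culture. The part of these marker levels in the interaction was not tested.

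Gefitinib changed far fewer genes in co-culture than in monoculture, and the difference itself passed the test for 3009 of 13577 genes. These 3009 genes (22.2% of those tested) were called at an adjusted p under 0.05, by limma's moderated test with Benjamini-Hochberg adjustment over all genes. Of them, 1325 (9.76%) had a higher and 1684 (12.4%) a lower interaction. In monoculture gefitinib changed 4735 genes (34.9%), of which 2569 (18.9%) rose and 2166 (16%) fell. In co-culture it changed 346 genes (2.55%), of which 140 (1.03%) rose and 206 (1.52%) fell. After the scanner intensities were background-corrected with limma's neqc, the gefitinib response in co-culture had 204 genes called and the gefitinib response in monoculture 4275. The monoculture and co-culture changes share no array, and both have a median standard error of 0.0856, because the fit pools the spread over all 12 arrays. Across genes the standard deviation of the log2 changes was 0.367 in monoculture and 0.135 in co-culture.

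Most interaction calls were genes that gefitinib moved in monoculture and for which no change passed the test in co-culture. This held for 2621 of the 3009 genes (87.1%). Another 146 changed in the same direction in both cultures and less in co-culture, 44 changed in co-culture only, 22 changed in opposite directions, and 6 changed in the same direction and more in co-culture. The remaining 170 were called for the interaction while neither change passed. Among the 4735 genes called in monoculture, the median ratio of the co-culture to the monoculture log2 change was 0.0745, with quartiles of -0.114 and 0.278. Among the 388 genes that gefitinib changed at least 2-fold in monoculture, this median ratio was 0.111, no gene had a ratio above 1, and 385 were called for the interaction. Choosing genes by their monoculture change favours low ratios and interaction calls, so these ratios and counts are a description. For 2762 of the 3009 genes (91.8%) the gefitinib arms of the cultures differed more from each other than the untreated arms did. That share is of called genes only, with none computed over all genes, so it too is a description. Correlations between arrays show the same ordering of groups: untreated monoculture and co-culture arrays correlated with r between 0.991 and 0.993, and gefitinib monoculture and gefitinib co-culture arrays with r between 0.967 and 0.969.

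**Figure D1:**
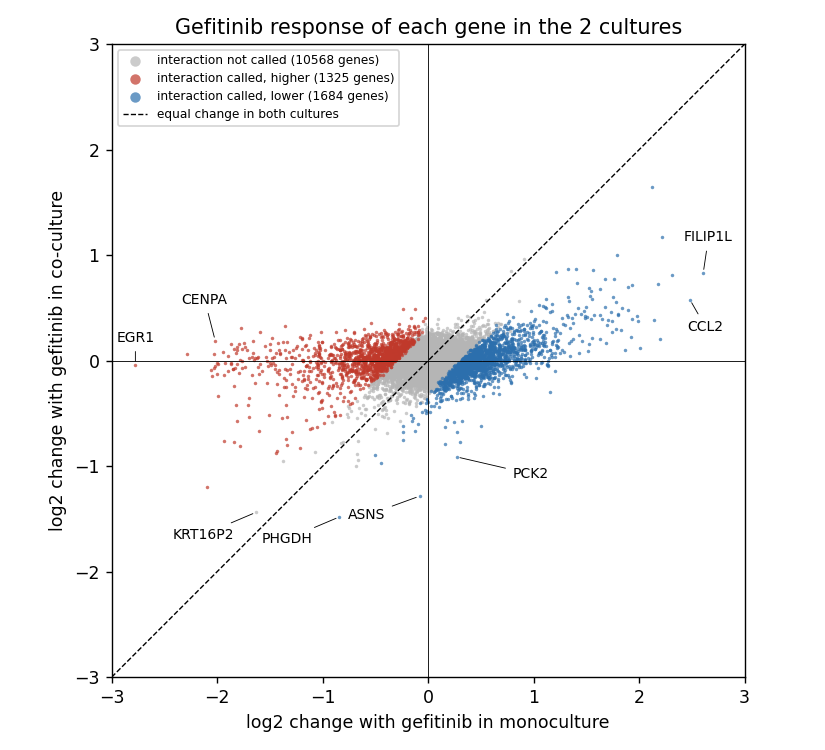
Log2 change with gefitinib in monoculture (x axis) against that in co-culture (y axis), 1 point for each of 13577 genes. Red and blue mark the 1325 genes with a higher and the 1684 with a lower interaction, and the dashed line marks equal change: the coloured points spread widely along x and stay near 0 on y, while PHGDH, ASNS and PCK2 lie low on y.

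Genes of cell division had the most uniform interaction. In a list of 37 mitosis genes, all 37 were measured, all 37 fell in monoculture, and all 37 had a higher interaction. None changed in co-culture in either direction by the adjusted p (2 had an unadjusted p under 0.05). Over all genes, 16% fell in monoculture and 9.76% had a higher interaction. The median log2 change was -1.73 in monoculture and -0.02 in co-culture, and the median interaction was 1.75, against -0.02 over all genes tested. The interactions ran from 0.60 to 2.21. CENPA, the histone H3 variant of centromeres, had log2 levels of 10.26, 10.19 and 10.30 with DMSO, 8.31, 8.23 and 8.15 with gefitinib in monoculture, 10.21, 10.08 and 10.00 in co-culture, and 10.23, 10.41 and 10.22 in gefitinib co-culture. The gefitinib monoculture arrays lay below the other 9, and the gefitinib co-culture arrays just above those of co-culture without drug. CENPA fell 4.05-fold in monoculture, changed by 0.19 ± 0.08 on the log2 scale in co-culture (adjusted p = 0.30), and had an interaction of 2.21 ± 0.12 (SE, adjusted p = 6.7e-13). CCNA2, cyclin A, which drives S phase and entry into mitosis, had an interaction of 2.09 ± 0.12 (adjusted p = 1.6e-12). KIF2C and KIF20A, kinesins of the spindle and of cytokinesis, both had an interaction of 1.97, with standard errors of 0.11 and 0.12. The 15 largest positive interactions of all genes also included the condensin subunit NCAPG at 2.03, topoisomerase TOP2A at 1.96, the kinase CDK1 at 1.95 and the kinase AURKB at 1.94. PTTG3P, at 2.03, is a pseudogene whose probe may read its parent gene, the securin PTTG1.

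The promoters of the 2 mitosis genes with the largest interaction are shown because cell-cycle genes of this class are known to be controlled through an element called the CHR. Each sequence runs 250 bases before to 50 bases after the gene start, from RefSeq on GRCh38.p14. CENPA lies at chr2:26785806-26786105 on the plus strand and CCNA2 at chr4:121823834-121824133 on the minus strand. Capitals mark a match to the CHR letters searched, TTTGAA or TTCGAA on either strand.
CENPA: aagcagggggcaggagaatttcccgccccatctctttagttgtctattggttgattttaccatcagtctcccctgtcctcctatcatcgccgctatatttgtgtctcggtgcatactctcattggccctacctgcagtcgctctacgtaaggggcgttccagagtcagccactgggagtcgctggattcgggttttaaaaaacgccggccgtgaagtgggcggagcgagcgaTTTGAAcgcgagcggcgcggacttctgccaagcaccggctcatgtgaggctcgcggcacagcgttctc
CCNA2: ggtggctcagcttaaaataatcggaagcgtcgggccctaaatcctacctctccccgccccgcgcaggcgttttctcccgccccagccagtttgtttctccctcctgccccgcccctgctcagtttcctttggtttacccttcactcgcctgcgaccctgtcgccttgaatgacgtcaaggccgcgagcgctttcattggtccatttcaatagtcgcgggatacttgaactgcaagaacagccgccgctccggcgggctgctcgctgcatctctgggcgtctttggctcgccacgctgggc
CENPA held 1 match, which starts at -18 from the gene start, and the letters searched were not in the CCNA2 window. Other forms of the element were not searched, so its absence from that window is not shown. Of the 31 mitosis genes with a RefSeq promoter, 22 (71.0%) held a match, against 16.6% of all 27305 promoters of the same length. A match is a description of the sequence and not evidence of binding.

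Genes of DNA replication followed the same pattern. Of 39 listed genes 38 were measured, 35 fell in monoculture, and 33 had a higher and none a lower interaction. That is 86.8% called, against 22.2% over all genes, of which 16% fell in monoculture. The median interaction was 0.92, with a median change of -0.84 in monoculture and 0.05 in co-culture. GINS2, a subunit of the replicative helicase complex, was the only member that passed the test in co-culture, and it rose there. In co-culture 5 members had an unadjusted p under 0.05. Its log2 levels were 10.47, 10.55 and 10.54 with DMSO, 8.79, 8.78 and 8.67 with gefitinib in monoculture, 10.31, 10.25 and 10.06 in co-culture, and 10.53, 10.57 and 10.45 in gefitinib co-culture. The gefitinib co-culture arrays lay above the co-culture arrays and among those with DMSO. GINS2 fell 3.42-fold in monoculture and rose 1.24-fold in co-culture (adjusted p = 0.031), with an interaction of 2.09 ± 0.11 (adjusted p = 9.2e-13). CDC45, the partner of GINS in that helicase, had an interaction of 1.95 ± 0.12, and TK1, thymidine kinase, of 1.91 ± 0.11. CDT1, the licensing factor that loads the helicase, had an interaction of 1.85 ± 0.14.
Replication genes are known targets of E2F factors, so the GINS2 promoter is shown, at chr16:85688905-85689204 on the minus strand, with capitals for a match to TTTGGCGC, TTTCGCGC, TTTCCCGC or TTTGGCGG on either strand.
GINS2: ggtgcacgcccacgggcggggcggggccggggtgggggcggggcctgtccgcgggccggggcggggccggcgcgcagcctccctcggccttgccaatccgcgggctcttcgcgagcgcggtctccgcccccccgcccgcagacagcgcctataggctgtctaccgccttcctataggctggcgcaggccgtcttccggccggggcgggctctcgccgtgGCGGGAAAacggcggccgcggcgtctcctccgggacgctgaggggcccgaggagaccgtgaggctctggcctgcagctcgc
Its match starts at -31. Of 34 replication genes with a RefSeq promoter, 22 (64.7%) held such a match, against 3.43% of all 27305 promoters.

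Of 14 measured cyclins, CDKs and CDK inhibitors, 4 had a higher and 4 a lower interaction (57.1% called, against 22.2% over all genes). The higher ones were CDKN3, CCND1, CCND3 and CDK2, and the lower ones were CDKN2B, CDKN1C, CDKN1A and CDKN1B, with CCND3, CDK2, CDKN1A and CDKN1B named after their values were seen. CDKN3, a phosphatase that acts on CDKs and is itself expressed in dividing cells, had the second largest interaction of all genes that were ranked, 2.35 ± 0.12. CCND1, cyclin D1, had log2 levels of 12.17, 12.03 and 11.96 with DMSO, 10.74, 10.62 and 10.69 with gefitinib in monoculture, 12.10, 11.97 and 12.10 in co-culture, and 11.79, 11.86 and 11.76 in gefitinib co-culture. The 3 gefitinib co-culture arrays lay below the 3 co-culture arrays but far above gefitinib monoculture, and the interaction was 1.12 ± 0.11. CDKN2B, an inhibitor of the cyclin D kinases, rose 2.91-fold in monoculture and 1.32-fold in co-culture (adjusted p = 0.0045), with an interaction of -1.15 ± 0.12. CDKN1C, a further CDK inhibitor, rose 2.11-fold in monoculture and its co-culture change of 0.17 ± 0.08 did not pass the test, with an interaction of -0.91 ± 0.11, or -1.83 after neqc.

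The ERK pathway held the gene with the largest interaction. EGR1, an immediate early transcription factor that ERK switches on, had log2 levels of 9.81, 10.00 and 9.81 with DMSO, 7.00, 7.12 and 7.17 with gefitinib in monoculture, 10.14, 10.25 and 10.31 in co-culture, and 10.21, 10.08 and 10.29 in gefitinib co-culture. The co-culture groups overlapped each other and both lay above DMSO monoculture. EGR1 fell 6.84-fold in monoculture, changed by -0.04 ± 0.08 in co-culture (adjusted p = 0.91), and had an interaction of 2.74 ± 0.12 (adjusted p = 2.6e-14). Of 22 measured ERK output genes, 13 fell and 4 rose in monoculture, and 4 fell and 1 rose in co-culture. For the interaction 10 were higher and 2 lower (54.5% called, against 22.2% over all genes), with a median of 0.26. FOSL1, an AP-1 subunit, had an interaction of 1.42 ± 0.12, and its co-culture change of -0.22 ± 0.09 did not pass the test. PHLDA1 fell in both cultures, by 1.82 in monoculture and by 0.42 in co-culture (adjusted p = 0.0045), with an interaction of 1.40 ± 0.12. The 4 members that fell in co-culture, named after their values were seen, were PHLDA1, DUSP6, ETV5 and FOS. DUSP6, the ERK phosphatase, fell by 1.12 in monoculture and by 0.65 in co-culture, and ETV5, an ETS factor, fell by 1.22 and 0.83. ATF3, a stress-responsive factor on the same list, rose 2.20-fold in monoculture with a co-culture change of -0.05 ± 0.08, an interaction of -1.19 ± 0.12.
The EGR1 promoter, at chr5:138465229-138465528 on the plus strand, is shown because ERK is known to act on it through serum response factor, and capitals mark matches to that factor's CArG box on either strand.
EGR1: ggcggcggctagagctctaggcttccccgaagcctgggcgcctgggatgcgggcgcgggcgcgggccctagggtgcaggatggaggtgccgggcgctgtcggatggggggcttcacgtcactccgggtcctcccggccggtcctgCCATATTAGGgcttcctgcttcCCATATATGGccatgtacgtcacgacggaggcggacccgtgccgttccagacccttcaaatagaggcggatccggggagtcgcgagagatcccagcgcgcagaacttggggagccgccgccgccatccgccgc
It held 2 matches. A match stood in 1 (6.67%) of 15 ERK output genes with a RefSeq promoter, against 1.29% of all 27305 promoters.

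**Figure D2:**
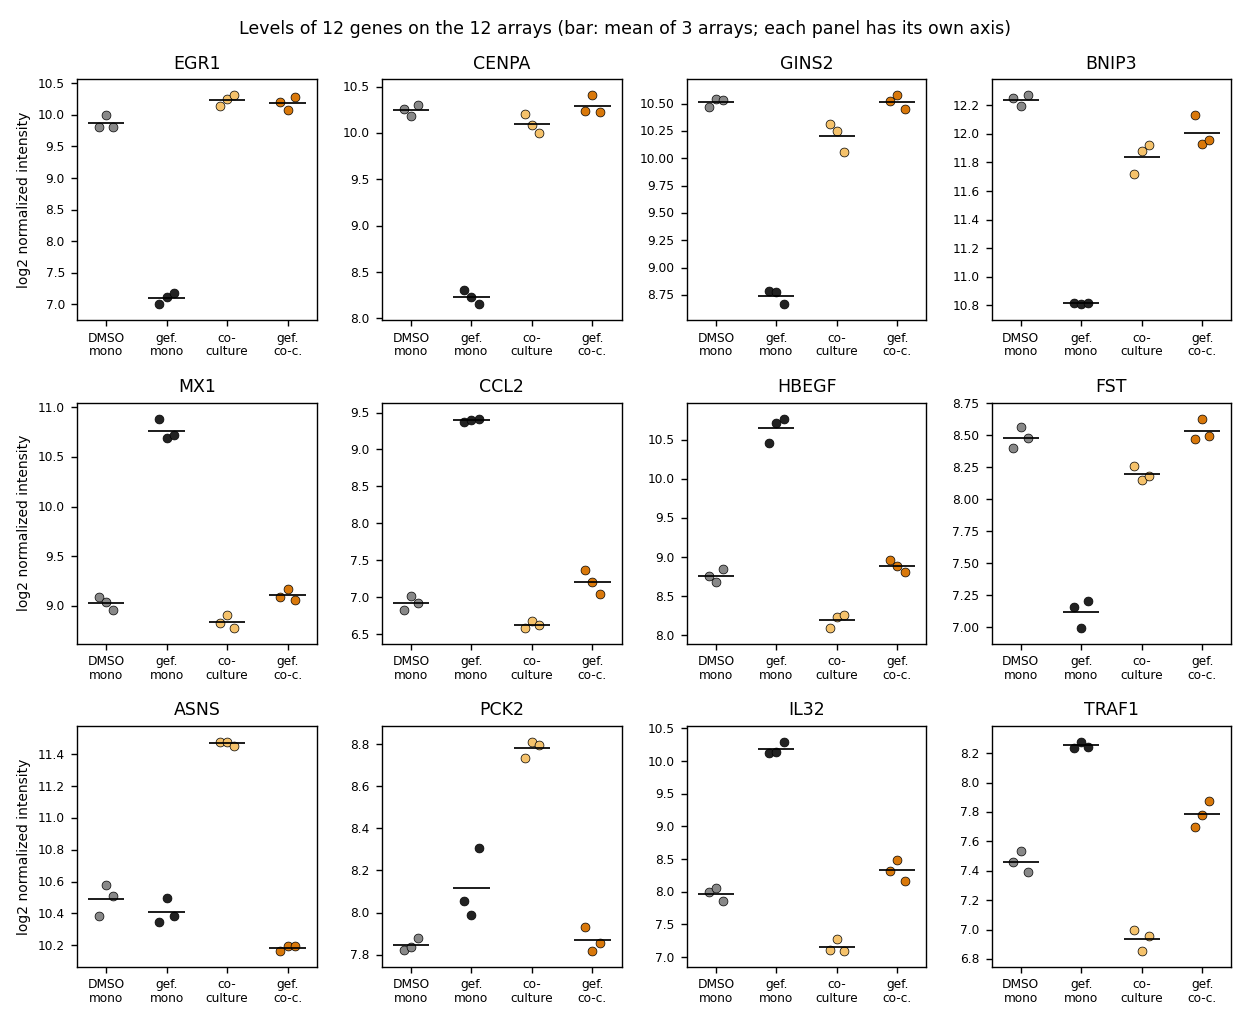
Log2 normalized intensity of 12 genes on the 12 arrays, 1 panel a gene with its own y axis, points for single arrays and a bar for the mean of 3 arrays in each group. EGR1, CENPA, GINS2, BNIP3 and FST are low only on the gefitinib monoculture arrays, MX1, CCL2, HBEGF and IL32 are highest there, ASNS and PCK2 are highest in co-culture without drug, and TRAF1 steps up with gefitinib in both cultures.

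At the receptors, EGFR itself showed little interaction. EGFR fell by 0.34 in monoculture (adjusted p = 0.0039) and its co-culture change was -0.21 ± 0.09 (adjusted p = 0.32). The interaction was 0.13 ± 0.13, with a 95% interval of -0.13 to 0.39, and 1 of the 3 other EGFR probes gave the opposite sign. Of 10 measured ErbB receptors, ligands and regulators, 2 had a higher and 3 a lower interaction (50% called, against 22.2% over all genes). NRG1, a ligand of ERBB3 and ERBB4, had log2 levels of 8.98, 8.86 and 9.01 with DMSO, 7.56, 7.61 and 7.66 with gefitinib in monoculture, 8.71, 8.79 and 8.83 in co-culture, and 8.89, 9.01 and 8.97 in gefitinib co-culture. Gefitinib lowered it in monoculture only by the test, and the interaction was 1.52 ± 0.11, although 1 of 2 further NRG1 probes gave an opposite sign. HBEGF, an EGFR ligand, had levels of 8.75, 8.69 and 8.85 with DMSO, 10.46, 10.72 and 10.77 with gefitinib in monoculture, 8.10, 8.23 and 8.26 in co-culture, and 8.96, 8.89 and 8.81 in gefitinib co-culture. It rose in both cultures, 3.71-fold alone and 1.62-fold in co-culture, with an interaction of -1.20 ± 0.12. ERRFI1, a feedback inhibitor of EGFR, had an interaction of 0.90 ± 0.12, and ERBB2 of -0.50 ± 0.12. The ERBB2 call was lost when the probes of a gene were averaged (adjusted p = 0.088).

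Among 16 other measured receptor kinases and ligands, 2 had a higher and 3 a lower interaction (31.2% called, against 22.2% over all genes), which says little of the list as a whole. GAS6, the ligand of AXL and related receptors, rose 2.26-fold in monoculture and 1.24-fold in co-culture, an interaction of -0.87 ± 0.11, with the opposite sign at 1 of 3 further GAS6 probes. AXL fell 1.78-fold in monoculture and 1.24-fold in co-culture, an interaction of 0.52 ± 0.11, or 1.10 after neqc. FGFR3 rose by 0.32 in monoculture and fell by 0.35 in co-culture, an interaction of -0.67 ± 0.11, or -1.23 after neqc. Its other probe had the opposite sign, and the call was lost when probes were averaged (adjusted p = 0.13). MET, the receptor of HGF, singled out after its values were seen, fell by 0.42 in monoculture, changed by -0.13 in co-culture, and was not called for the interaction at 0.29.

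Genes of hypoxia and glycolysis fell widely with gefitinib in monoculture, and fewer did in co-culture. Of 27 measured members, 23 fell in monoculture and 6 in co-culture, against 16% and 1.52% over all genes. A higher interaction was called for 18 and a lower for none (66.7% called, against 22.2% over all genes), with a median of 0.58. BNIP3, a mitophagy receptor induced by hypoxia, had levels of 12.25, 12.20 and 12.27 with DMSO, 10.82, 10.81 and 10.82 with gefitinib in monoculture, 11.72, 11.88 and 11.92 in co-culture, and 12.13, 11.93 and 11.96 in gefitinib co-culture. All gefitinib co-culture arrays lay above the co-culture arrays, but that change of 0.17 ± 0.08 did not pass the test, and the interaction was 1.59 ± 0.11 (adjusted p = 5.5e-11). PFKFB4, which makes the activator of phosphofructokinase, fell 3.24-fold in monoculture and 1.28-fold in co-culture, an interaction of 1.34 ± 0.12. HK2, hexokinase, fell 2.27-fold in monoculture and changed by -0.01 ± 0.09 in co-culture, an interaction of 1.18 ± 0.13. ADM, the vasodilator peptide adrenomedullin, had an interaction of 1.08 ± 0.11.

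Ribosome biogenesis genes had smaller interactions of the same sign. Of 25 measured members, 19 fell in monoculture and none passed the test in co-culture (5 had an unadjusted p under 0.05). For the interaction 16 were higher and none lower (64% called, against 22.2% over all genes), with a median of 0.41. LYAR, a nucleolar protein, had an interaction of 1.22 ± 0.12, and NOLC1, a nucleolar chaperone of snoRNPs, of 0.77 ± 0.12. NOP56, a core protein of box C/D snoRNPs, had an interaction of 0.59 ± 0.14. Of 16 measured ER chaperones 6 had a higher and none a lower interaction (37.5% called, against 22.2% over all genes), led by SDF2L1 at 0.59 ± 0.13. The calls of CRELD2 and DNAJC3, 0.39 and 0.35, did not hold in several fits that left out 1 array.

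**Figure D3:**
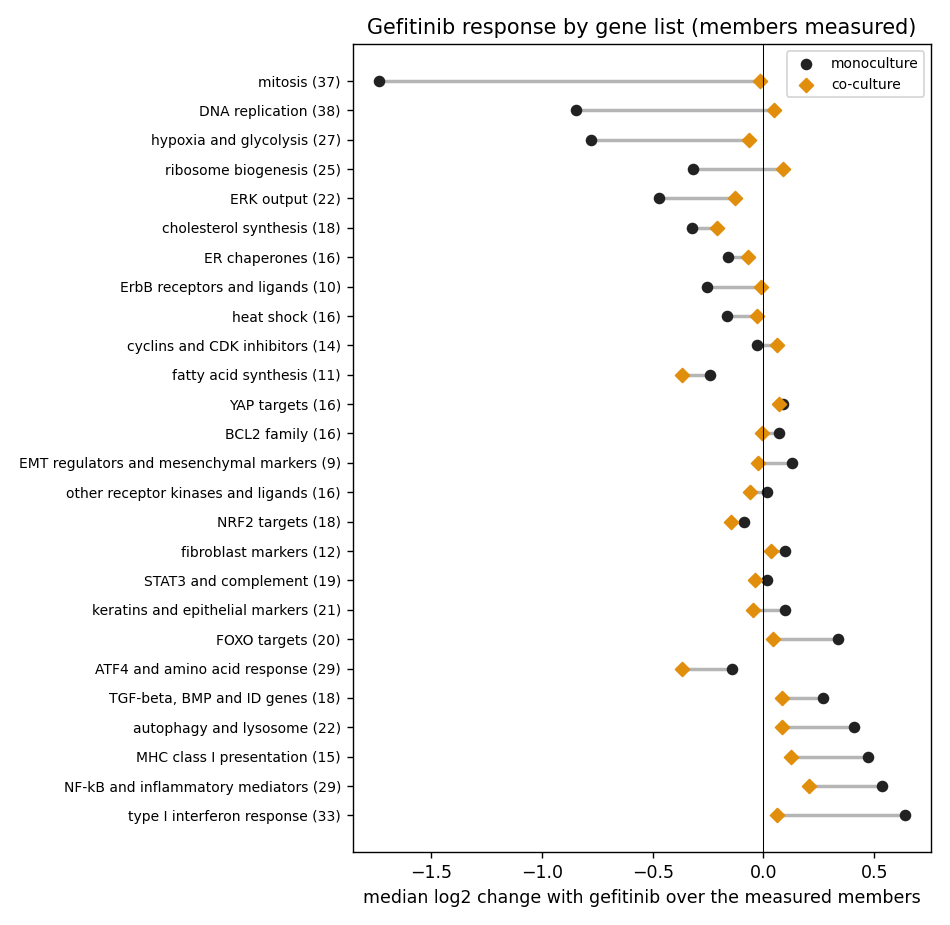
Median log2 change with gefitinib over the measured members of 26 gene lists (number measured in brackets), black circles for monoculture and orange diamonds for co-culture, joined by a line and ordered by the median interaction. Mitosis has the longest line, from -1.73 to -0.02, and the ATF4 list is among the few whose co-culture median lies farther from 0 than its monoculture median.

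Interferon response genes rose widely with gefitinib in monoculture, and fewer passed the test in co-culture. Of 33 measured members of 37 listed, 30 rose in monoculture, 4 rose in co-culture, and 23 had a lower and none a higher interaction. Over all genes, 18.9% rose in monoculture, 1.03% rose in co-culture and 12.4% had a lower interaction. In co-culture 10 members had an unadjusted p under 0.05. The median change was 0.64 in monoculture and 0.06 in co-culture, and the median interaction was -0.63. MX1, an antiviral GTPase, had levels of 9.08, 9.04 and 8.95 with DMSO, 10.89, 10.69 and 10.72 with gefitinib in monoculture, 8.82, 8.91 and 8.78 in co-culture, and 9.09, 9.17 and 9.05 in gefitinib co-culture. Both co-culture groups lay far below gefitinib monoculture and did not overlap each other. MX1 rose 3.34-fold in monoculture, and its co-culture change of 0.27 ± 0.08 did not pass the test (adjusted p = 0.074), with an interaction of -1.47 ± 0.11 (adjusted p = 1.8e-10). IFI44L, an interferon-induced gene, had an interaction of -1.42 ± 0.11. OAS2, a synthase of the messenger that activates RNase L, had an interaction of -1.30 ± 0.12, or -2.77 after neqc. IFI27 rose in both cultures, 3.81-fold alone and 1.64-fold in co-culture, an interaction of -1.21 ± 0.14.
The MX1 promoter, at chr21:41420308-41420607 on the plus strand, is shown because interferon acts through the element called the ISRE, and capitals mark its core GAAANNGAA on either strand.
MX1: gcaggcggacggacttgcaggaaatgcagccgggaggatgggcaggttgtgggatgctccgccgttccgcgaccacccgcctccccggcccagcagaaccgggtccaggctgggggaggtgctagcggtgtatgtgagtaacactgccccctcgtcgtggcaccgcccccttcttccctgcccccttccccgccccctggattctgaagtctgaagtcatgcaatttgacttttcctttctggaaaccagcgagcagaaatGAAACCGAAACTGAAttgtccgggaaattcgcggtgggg
It held 2 matches, which overlap. The core stood in 19 (70.4%) of 27 members with a RefSeq promoter, against 8.29% of all 27305 promoters.

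Of 15 measured genes of MHC class I presentation, 10 rose in monoculture and 4 in co-culture, against 18.9% and 1.03% over all genes. A lower interaction was called for 9 and a higher for none (60% called, against 22.2% over all genes), with a median of -0.38. HLA-B, a class I heavy chain, had levels of 8.87, 8.79 and 8.90 with DMSO, 10.21, 10.27 and 10.30 with gefitinib in monoculture, 8.32, 8.52 and 8.48 in co-culture, and 9.33, 9.05 and 9.16 in gefitinib co-culture. Gefitinib raised it in both cultures, 2.65-fold and 1.67-fold, and the interaction was -0.67 ± 0.12. The class I genes HLA-F, HLA-C and HLA-E had interactions of -0.66, -0.61 and -0.59, and after neqc of -0.79, -1.07 and -0.65. Their sequences are much alike, so a probe may read more than 1 of them.

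Of 29 measured NF-kB and inflammatory genes, 20 rose in monoculture and 10 in co-culture, against 18.9% and 1.03% over all genes. For the interaction 16 were lower and 1 higher (58.6% called, against 22.2% over all genes), with a median of -0.43. The single higher one, named after its value was seen, was TNFAIP3, an inhibitor of NF-kB, which changed by -0.03 in monoculture and rose by 0.40 in co-culture, an interaction of 0.44. ACKR3, a scavenger receptor of CXCL12, had levels of 6.78, 6.66 and 6.75 with DMSO, 8.93, 9.06 and 8.79 with gefitinib in monoculture, 6.56, 6.89 and 6.45 in co-culture, and 6.83, 6.90 and 6.79 in gefitinib co-culture. Only gefitinib monoculture stood apart. The interaction was -1.99 ± 0.14 (adjusted p = 2.3e-11), or -3.49 after neqc. CCL2, the chemokine that draws monocytes, had levels of 6.82, 7.01 and 6.91 with DMSO, 9.38, 9.40 and 9.42 with gefitinib in monoculture, 6.59, 6.68 and 6.62 in co-culture, and 7.36, 7.21 and 7.05 in gefitinib co-culture. None of the co-culture arrays without drug detected it, so its rise there is at least 1.46-fold, against 5.59-fold in monoculture, and no interaction value is given for it. IL32, a proinflammatory cytokine, had levels of 8.00, 8.06 and 7.86 with DMSO, 10.13, 10.15 and 10.29 with gefitinib in monoculture, 7.11, 7.27 and 7.09 in co-culture, and 8.32, 8.49 and 8.17 in gefitinib co-culture. It rose 4.65-fold alone and 2.25-fold in co-culture, an interaction of -1.05 ± 0.13. LCN2, a siderophore-binding protein of the acute phase, rose 3.79-fold in monoculture with a co-culture change of 0.22 ± 0.10, an interaction of -1.70 ± 0.14. On a separate list, of STAT3 and complement genes, the complement factor CFB had an interaction of -1.36 ± 0.11. The protease inhibitor SERPINA3 on that list had -1.18 ± 0.13, or -2.07 after neqc.

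Other genes with large negative interactions had varied roles. H2AC25, a histone H2A gene, had an interaction of -1.89 ± 0.13. FILIP1L, a regulator of cell motility, rose 6.10-fold in monoculture and 1.78-fold in co-culture, an interaction of -1.78 ± 0.13. The growth factor MDK, midkine, rose 3.97-fold and 1.30-fold, an interaction of -1.61 ± 0.12. DYSF, dysferlin, a membrane repair protein, had an interaction of -1.56 ± 0.12, and CYP1B1, a cytochrome P450, of -1.48 ± 0.16. ACTA1, skeletal muscle actin, was detected on 1 DMSO array, on 3 gefitinib monoculture arrays and on 0 of the co-culture arrays of either group, so it was kept through the group where it was high, and no interaction is given for it. The pro-apoptotic gene BMF was the only called member of 16 measured BCL2 family genes (6.25%, against 22.2% over all genes). Its levels were 7.20, 7.03 and 7.12 with DMSO, 8.84, 8.81 and 8.77 with gefitinib in monoculture, 7.04, 7.17 and 7.02 in co-culture, and 7.36, 7.20 and 7.18 in gefitinib co-culture. Gefitinib raised BMF 3.23-fold in monoculture, its co-culture change was 0.17 ± 0.08 (adjusted p = 0.37), and the interaction was -1.52 ± 0.11.

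FOXO factors, which AKT holds out of the nucleus, switch on genes of growth arrest and energy stress. Of 20 measured FOXO genes 12 rose in monoculture and 3 in co-culture, against 18.9% and 1.03% over all genes. Among them 9 had a lower and none a higher interaction (45% called, against 22.2% over all genes), with a median of -0.26. PIK3IP1, an inhibitor of PI3K, had an interaction of -1.20 ± 0.13, FOXO4 of -1.10 ± 0.12 and TXNIP, a thioredoxin inhibitor, of -0.80 ± 0.12. Of 22 measured autophagy and lysosome genes, 15 rose and 1 fell in monoculture, and none passed the test in co-culture (3 had an unadjusted p under 0.05). For the interaction 12 were lower and none higher (54.5% called, against 22.2% over all genes), with a median of -0.35. ULK1, the kinase that starts autophagy, had an interaction of -1.17 ± 0.12. GABARAPL1, an autophagosome membrane protein, had -1.08 ± 0.14, and CTSB, a lysosomal protease, -0.81 ± 0.11.

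Genes of TGF-beta and YAP signalling were mixed. Of 18 measured TGF-beta, BMP and ID genes, 2 had a higher and 8 a lower interaction. The share called was 55.6%, against 22.2% over all genes (9.76% higher and 12.4% lower). FST, follistatin, a secreted inhibitor of activin, had levels of 8.40, 8.56 and 8.48 with DMSO, 7.16, 7.00 and 7.21 with gefitinib in monoculture, 8.26, 8.15 and 8.18 in co-culture, and 8.47, 8.63 and 8.49 in gefitinib co-culture. It fell in monoculture and rose in co-culture (adjusted p = 0.020), an interaction of 1.69 ± 0.11, or 2.72 after neqc. PMEPA1, a TGF-beta target that limits the pathway, had an interaction of -1.32 ± 0.11, and EDN1, endothelin, of -0.79 ± 0.12. Among 16 measured YAP targets 3 had a higher and 4 a lower interaction (43.8% called, against 22.2% over all genes). They were led by F3, tissue factor, at 1.61 ± 0.13 and ANKRD1 at -0.95 ± 0.12.

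Among keratins and epithelial genes, more interactions were lower than higher, which also held over all genes. Of 21 measured keratins and epithelial genes, 2 had a higher and 8 a lower interaction. The share called was 47.6%, against 22.2% over all genes (9.76% higher and 12.4% lower). The count of higher ones is thus near the share over all genes. The 2 higher ones were the partner keratins KRT18, at 0.93 ± 0.13, and KRT8, at 0.61 ± 0.14, which fell in both cultures. CLDN1, a tight junction protein, had an interaction of -0.92 ± 0.14. VIM, vimentin, a mesenchymal filament, rose 2.19-fold in monoculture with a co-culture change of -0.03 ± 0.09, an interaction of -1.16 ± 0.13. Its list, of EMT regulators and mesenchymal markers, had 22.2% called, the same share as over all genes. Of 12 measured fibroblast markers 4 had a lower and none a higher interaction (33.3% called, against 12.4% lower and 22.2% in either direction over all genes). COL5A1, a fibrillar collagen chain, had an interaction of -1.19 ± 0.13. S100A4 had -0.52 ± 0.12, or -0.98 after neqc, with its other probe of the opposite sign, and COL1A1 and LUM each had -0.38, calls that were lost under several settings. All 4 rose with gefitinib in monoculture. The part of any fibroblast RNA in these interactions was not tested.

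Among amino acid genes, gefitinib lowered more in co-culture than in monoculture. In a list of 29 measured ATF4 and amino acid response genes, 17 fell and none rose in co-culture, against 10 that fell and 6 that rose in monoculture. Over all genes 1.52% fell and 1.03% rose in co-culture, and 16% fell and 18.9% rose in monoculture. ATF4 is the transcription factor that switches on amino acid synthesis, import and tRNA charging when amino acids are short. For the interaction, 14 members were lower and 3 higher (58.6% called, against 22.2% over all genes), with a median of -0.31. The 3 higher ones, named after their values were seen, were DDIT4, VEGFA and ALDH18A1, of which DDIT4 and VEGFA are also on the hypoxia list. ASNS, asparagine synthetase, had levels of 10.39, 10.58 and 10.51 with DMSO, 10.35, 10.50 and 10.38 with gefitinib in monoculture, 11.48, 11.48 and 11.45 in co-culture, and 10.16, 10.19 and 10.19 in gefitinib co-culture. The monoculture groups overlapped, co-culture without drug stood above all other arrays, and gefitinib co-culture stood below them. ASNS changed by -0.08 ± 0.08 in monoculture (adjusted p = 0.46) and fell 2.44-fold in co-culture (adjusted p = 1.6e-11), an interaction of -1.20 ± 0.11 (adjusted p = 3.7e-09).

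PCK2, a mitochondrial enzyme that feeds carbon toward serine and glycerol, moved in opposite directions. Its levels were 7.82, 7.84 and 7.88 with DMSO, 8.05, 7.99 and 8.31 with gefitinib in monoculture, 8.73, 8.81 and 8.80 in co-culture, and 7.93, 7.82 and 7.86 in gefitinib co-culture. It rose 1.21-fold in monoculture (adjusted p = 0.012) and fell 1.88-fold in co-culture, an interaction of -1.18 ± 0.12. PHGDH, the entry enzyme of serine synthesis, had levels of 10.71, 10.78 and 10.77 with DMSO, 9.83, 10.05 and 9.85 with gefitinib in monoculture, 11.78, 11.74 and 11.62 in co-culture, and 10.11, 10.37 and 10.21 in gefitinib co-culture. It fell in both cultures and more in co-culture, 2.79-fold against 1.79-fold, an interaction of -0.64 ± 0.12. PSAT1, the next enzyme of that route, fell 1.86-fold against 1.42-fold, an interaction of -0.39 ± 0.12 (adjusted p = 0.018), which did not pass after neqc (adjusted p = 0.076). CBS, an enzyme of cysteine synthesis, had an interaction of -0.95 ± 0.11. Its probe may also read a near-identical copy. CEBPG, a partner of ATF4, had an interaction of -0.80 ± 0.11.

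These interactions came with a difference between the untreated arms. Without drug, the median level of the 29 genes was 0.38 higher in co-culture than in monoculture on the log2 scale, and with gefitinib the median difference was -0.003. For ASNS the untreated arms differed by 0.98 and the gefitinib arms by -0.23, and for PHGDH by 0.96 and 0.32. The labels name RPMI for routine growth and EMEM for the co-culture, and the part of the medium in these values was not tested.
The ASNS promoter, at chr7:97872359-97872658 on the minus strand, is shown because ATF4 is known to act on it, and capitals mark TGATGNAA on either strand.
ASNS: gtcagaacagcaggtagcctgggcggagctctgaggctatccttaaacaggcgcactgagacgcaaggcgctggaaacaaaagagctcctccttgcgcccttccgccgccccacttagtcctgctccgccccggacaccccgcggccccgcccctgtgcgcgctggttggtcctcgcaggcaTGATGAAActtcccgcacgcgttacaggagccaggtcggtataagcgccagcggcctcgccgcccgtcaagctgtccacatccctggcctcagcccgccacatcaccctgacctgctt
Its match starts at -68. These letters stood in 3 (13%) of 23 members with a RefSeq promoter, against 3.67% of all 27305 promoters.

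**Figure D4:**
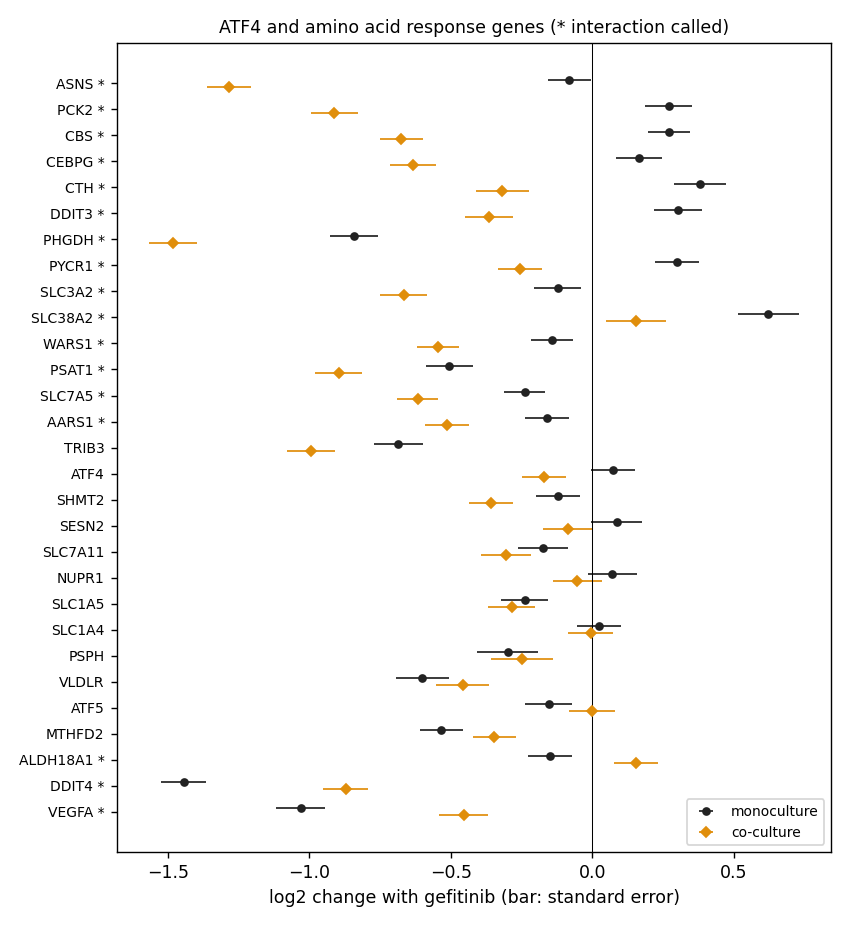
Log2 change with gefitinib of the 29 measured ATF4 and amino acid response genes (x axis; points with standard errors), black circles for monoculture and orange diamonds for co-culture, with an asterisk where the interaction was called. The genes are ordered by interaction, from ASNS at -1.20 to VEGFA at 0.58, and most orange points lie left of the black ones.

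Outside that list, further genes changed more in co-culture or in opposite directions. ABCC3, an efflux transporter, rose 1.24-fold in monoculture and fell 1.70-fold in co-culture, an interaction of -1.07 ± 0.13. HPGD, which inactivates prostaglandins, rose 1.42-fold and fell 1.53-fold, an interaction of -1.12 ± 0.12. SLCO2A1, the prostaglandin transporter, changed by 0.16 ± 0.08 in monoculture (adjusted p = 0.11) and fell 1.73-fold in co-culture, an interaction of -0.95 ± 0.11. AKR1C3, a reductase of steroids and prostaglandins that also counts as an NRF2 target, rose 1.59-fold and fell 1.25-fold, an interaction of -0.99 ± 0.11. Its probe may also read close relatives in its family. IL20RB, a cytokine receptor chain, fell 1.37-fold in monoculture and 1.95-fold in co-culture, an interaction of -0.51 ± 0.12, and SCNN1A, a sodium channel subunit, had an interaction of -0.52 ± 0.11. ABHD5, a co-activator of fat breakdown, fell in monoculture and rose 1.28-fold in co-culture, an interaction of 0.90 ± 0.12.

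Some lipid synthesis genes fell in both cultures. Of 18 measured cholesterol synthesis genes, 12 fell in monoculture and 5 in co-culture, and 2 had a higher and 1 a lower interaction (16.7% called, against 22.2% over all genes), with medians of -0.32 in monoculture and -0.21 in co-culture. The exception was TM7SF2, a sterol reductase, which rose 2.14-fold in monoculture with a co-culture change of 0.03 ± 0.08, an interaction of -1.07 ± 0.12. Of 11 measured fatty acid synthesis genes 5 fell in monoculture and 6 in co-culture, and 2 had a higher and 1 a lower interaction (27.3% called). ELOVL6, a fatty acid elongase, fell 3.28-fold and 1.34-fold, an interaction of 1.29 ± 0.13. SCD, the desaturase, fell 2.44-fold and 1.60-fold, an interaction of 0.61 ± 0.11. ACSS2, which makes acetyl-CoA from acetate, fell in co-culture only by the test, an interaction of -0.50 ± 0.11.

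For 102 genes gefitinib passed the test in the same direction in both cultures while the interaction did not. TRAF1, an adaptor of TNF receptors, had levels of 7.46, 7.53 and 7.39 with DMSO, 8.24, 8.28 and 8.24 with gefitinib in monoculture, 7.00, 6.85 and 6.95 in co-culture, and 7.70, 7.78 and 7.87 in gefitinib co-culture. It rose by 0.79 and 0.85, and the interaction was 0.06 with a 95% interval of -0.17 to 0.28, or 0.56 after neqc (adjusted p = 0.047). NPPB, which encodes a natriuretic peptide, rose by 0.91 and 0.96, with an interval of -0.22 to 0.32 for the interaction. STMN3, a microtubule regulator, fell by 0.83 and 0.78, with an interval of -0.18 to 0.28, and TNFRSF6B, a decoy receptor, fell by 0.81 and 0.77, with an interval of -0.25 to 0.33 (0.68 after neqc, not called). MUC1, a membrane mucin, fell by 1.07 and 0.86, with an interval of -0.06 to 0.48, and 1 of 2 further MUC1 probes gave an opposite sign. INSIG1, which restrains cholesterol synthesis, fell by 1.37 and 0.96, and its interval of 0.09 to 0.75 lies above 0 although the adjusted p was 0.065. TRIB3, a pseudokinase induced by ATF4, fell by 0.69 and 0.99, with an interval of -0.56 to -0.06 and an adjusted p of 0.071. A p that misses the threshold does not show equal changes, and the intervals give the sizes that remain possible.

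In the remaining lists the share of interaction calls ran from 22.2% to 31.6%, near the 22.2% over all genes, so the counts say little of these lists. Of 18 measured NRF2 targets 1 had a higher and 4 a lower interaction, with GCLM, a subunit of the enzyme that starts glutathione synthesis, at 0.71 ± 0.13. Of 16 measured heat shock genes 2 had a higher and 2 a lower interaction. HSPD1, a mitochondrial chaperonin, had 0.44 ± 0.11, and HSPB8, a small heat shock protein, had -0.52 ± 0.15, which did not pass after neqc (adjusted p = 0.16). Of 19 measured STAT3 and complement genes 1 had a higher and 5 a lower interaction, and of 9 measured EMT regulators and mesenchymal markers none had a higher and 2 a lower one. Of the 3009 interaction calls, 77 were of genes not detected on any array of at least 1 group, for which a log2 change is bounded by the background.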

How the data were processed

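RNA of HCC827 cells was labelled with an Ambion MessageAmp kit and hybridised to Illumina bead arrays, per the labels' protocols. The authors deposited a scanner table with a linear intensity and a detection p-value per probe, per the file headers, and a value table of intensity normalized between arrays. Not given in the sources used here are the normalization method, the image software and how the detection p-value arose. In the scanner table the order of rows differed for the co-culture arrays, and each such row was given the probe whose values it matched in the normalized table. All 48106 rows (100%) were mutual best matches.

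Gene names came from the platform annotation: of 48104 probes, 30113 had 1 symbol, 8 had several and 17983 were unnamed here. Probes with a detection p under 0.05 on at least 3 of 12 arrays were kept (18238 with 1 symbol), and the brightest stood for each of 13577 genes (3602 had several). Log2 of the authors' normalized intensities was fitted in limma 3.58.1 (R 4.3.3) with a mean per group, and the interaction was a contrast over all 12 arrays. Tests were two-sided, with Benjamini-Hochberg adjustment over all 13577 genes and a threshold of 0.05. Errors are standard errors of the fit with n = 3 arrays a group, and intervals are 95% intervals of the same fit. A fold from a group without detection was set against the lowest detected value and is given as at least. The number of arrays limits the precision. The procedure was tested on simulated data.

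The members and the gene lists were chosen with earlier results of these data known, so no list has a test. Named genes were the 15 largest interactions in each direction among called genes detected on a whole group, up to 4 called members of each list by size, and 8 genes each of those called in opposite directions, changed more in co-culture, or called in both cultures but not for the interaction. EGFR, EGR1 and CCL2 were added. Alternatives were neqc, quantile normalization, median scaling, other detection filters, the mean of probes, a trended robust variance, a replicate block and leaving out each array.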

Additional observations from a re-analysis of the deposited data

Results flagged for a closer look

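The change with gefitinib differed between the cultures, by the interaction test, for 3009 genes, and the report gives the named ones. The 14 below are the genes with the largest interactions among those that changed in opposite directions, and those with the largest co-culture changes among those that changed more in co-culture, 8 of each with 2 in both. Higher interactions were 2.09 for GINS2, 1.69 for FST and 0.90 for ABHD5. Lower interactions were -1.20 for ASNS, -1.18 for PCK2, -0.95 for CBS, -0.64 for PHGDH and -0.39 for PSAT1, all of the amino acid list. Lower interactions outside that list were -0.99 for AKR1C3, -1.12 for HPGD, -1.07 for ABCC3, -0.51 for IL20RB, -0.95 for SLCO2A1 and -0.52 for SCNN1A. Groups of 3 arrays were not searched for single samples that stand apart.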

How the results depend on the processing

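The number of interaction calls was 3009, and 2439 after neqc, 3003 after quantile normalization, 3018 after median scaling, 2825 with no detection filter, 3207 with detection on a whole group, 2932 with the mean of probes and 3116 with a trended robust variance. It was 2650 to 2914 when each array was left out in turn. Of the 3009 genes, 2294 (76.2%) were called after neqc, and no gene called in both had the opposite sign under any of these settings. Median scaling moved the share of higher calls from 44.0% to 48.9%. Calls with gefitinib in co-culture fell from 346 to 204 after neqc, with the cause not tested, and were 254 to 336 when each array was left out. The replicate numbers in the titles were checked as pairs: deviations of same-numbered arrays correlated between -0.104 and 0.209. For arrays with different numbers the range was -0.295 to 0.146. The highest values, 0.209 and 0.184, were of same-numbered co-culture arrays. Groups of 3 arrays are too small for this check to decide whether the numbers pair the samples. With the replicate block 3082 genes were called, and all 131 named genes kept their side of the threshold. Among named genes not called for it, the interaction of KRT16P2 turned to -0.034 with the mean of probes. Leaving out 1 array put the interaction of NPPB between -0.028 and 0.15, the interaction of STMN3 between -0.000197 and 0.12, and the interaction of TNFRSF6B between -0.075 and 0.13. INSIG1 passed the test after median scaling (adjusted p = 0.046) and TRIB3 with the trended variance (adjusted p = 0.046). After neqc 7 named genes lost their call (CRELD2, FTL, HSPB8, HSPB1, COL1A1, LUM and PSAT1). The intensities carry background, which limits the size of changes that dim genes can show.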
